A study of Mus musculus with 32 samples.

Results

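Interferon-stimulated genes are the genes that cells switch on when they sense an interferon. The 32 described here were chosen by gene symbol from the deposited table of 5582 genes, and all 32 passed the filter on low counts that left 5371 genes tested. They were grouped by known role into 5 transcription factors, 5 sensors, 8 GTPases and 14 effectors and regulators.

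Counts came from bulk RNA-seq of mice on a C57BL/6 background that were targeted replacement animals. Human APOE3 (APOE3+/+) or human APOE4 (APOE4+/+) stood in place of both copies of mouse Apoe, so no group carried an intact mouse Apoe gene. TBI mice had a craniotomy of 4.5 mm over the left parietal cortex and 1 controlled cortical impact, in which a metal tip 3 mm across was driven 1 mm into the cortex. Sham mice had the same anaesthesia and craniotomy without impact, so the opening of the skull was shared by every group. Tissue was collected at day 14 from the injured cortex with the hippocampus beneath it, as 1 mixture of cells per animal. Each genotype had 8 TBI and 7 sham mice, and the labels used here gave no age. The comparison of injury asks how the tissue differs from sham tissue at that day. The comparison of genotype asks whether those levels differ between APOE3 and APOE4 mice. All APOE3 titles used here start with D and all APOE4 titles with E, letters that are not spelled out. The allele and other differences between these sets of mice cannot be told apart. The titles also carry a letter M or F that the labels do not spell out (15 and 15 animals), and it was a covariate in every model. A letter Y, likewise not spelled out, stands in every title.

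Of 32 libraries, 2 carried labels that disagreed and entered no comparison. Among the 30 animals used, the summed counts of listed genes lay between 2262242 and 8606717. A gap between 3595246 and 4648345 separated 14 shallow from 16 deep libraries, and every group contained both. Cortical and hippocampal neuron markers were abundant in every animal, with a summed level from 10711 to 17039 CPM (counts scaled to the total over listed genes, with TMM factors) over 8 tested markers. In bulk tissue, fewer cells of a type and less RNA per cell cannot be told apart.

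Interferons reach cells through 2 main routes. Type I interferons bind IFNAR1 and IFNAR2, and the kinases JAK1 and TYK2 then activate STAT2, which works with IRF9 in a complex that binds the interferon-stimulated response element (ISRE) near its target genes. Interferon gamma acts through IFNGR1 and IFNGR2, and its signal reaches the gamma-activated sequence (GAS). In brain, microglia, astrocytes, endothelium and infiltrating leukocytes can all respond to interferon, and several of the genes also act in antiviral defence, in killing of intracellular microbes and in cell death.

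The promoters of the members show these elements in different number and place. RefSeq promoter windows (GRCm38.p6, 250 bases before to 50 after an annotated start) were found for 24 of the 32 members. The core of the ISRE, searched on both strands as GAAA, any 2 bases and GAAA again, was present in 16 of these 24 members, against 3.99% of the 27025 genes with a window. The GAS, searched as TTCNNNGAA, which reads the same on both strands, was present in 8 of 24 members, against 9.55% of all genes with a window. Per window, 3.44% of 32851 windows held the ISRE core and 8.3% the GAS. The motifs overlapped each other in 2 members (Bst2 and Ifitm3), and ISRE matches overlapped one another in 5. The members without a window were Zbp1, Mx1, Mx2, Iigp1, Ifi27l2a, Usp18, Rtp4 and Parp14. A match is a description of the letters and not of binding.

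Sequence upstream of the start, outside exons annotated in GENCODE vM21, is printed for 5 members. Their log2 differences between TBI and sham ran from 0.17 (Stat2) to 1.95 (Bst2), so the members with the largest responses are not among them. The ISRE core is in capitals for the first 4 and the GAS for the fifth. Ifit1 lies on the plus strand (chr19:34640744-34640870) and holds 2 ISRE cores, Isg15 on the minus strand (chr4:156200819-156201068) holds 3 that overlap, Bst2 on the minus strand (chr8:71537473-71537722) holds 2 that overlap, and Stat2 on the plus strand (chr10:128270248-128270497) holds 1 far from the start. Irf1, on the plus strand (chr11:53769764-53770013), holds no ISRE core and 1 GAS.
Ifit1: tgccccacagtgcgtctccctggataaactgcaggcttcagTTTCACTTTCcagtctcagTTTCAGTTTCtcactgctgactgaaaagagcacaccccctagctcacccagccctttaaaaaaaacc
Isg15: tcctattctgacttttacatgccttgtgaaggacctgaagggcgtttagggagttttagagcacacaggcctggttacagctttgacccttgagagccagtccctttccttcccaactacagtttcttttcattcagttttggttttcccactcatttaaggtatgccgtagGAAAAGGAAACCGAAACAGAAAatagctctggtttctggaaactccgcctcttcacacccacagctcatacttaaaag
Bst2: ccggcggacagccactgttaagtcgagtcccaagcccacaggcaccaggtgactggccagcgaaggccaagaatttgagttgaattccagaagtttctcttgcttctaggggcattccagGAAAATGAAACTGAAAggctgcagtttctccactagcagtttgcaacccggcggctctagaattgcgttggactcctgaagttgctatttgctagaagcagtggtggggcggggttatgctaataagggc
Stat2: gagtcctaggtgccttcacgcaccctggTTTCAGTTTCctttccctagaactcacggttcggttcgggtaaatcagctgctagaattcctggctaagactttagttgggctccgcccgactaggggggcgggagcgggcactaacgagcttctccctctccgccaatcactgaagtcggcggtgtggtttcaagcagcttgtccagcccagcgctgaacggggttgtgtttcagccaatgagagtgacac
Irf1: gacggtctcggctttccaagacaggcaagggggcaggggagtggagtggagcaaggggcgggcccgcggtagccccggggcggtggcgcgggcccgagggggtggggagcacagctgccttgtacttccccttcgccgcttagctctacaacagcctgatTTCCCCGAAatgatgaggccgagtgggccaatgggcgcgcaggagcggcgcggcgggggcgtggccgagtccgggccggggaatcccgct

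All 32 members were higher in TBI than in sham animals, with a median log2 difference of 1.61, against 0.10 over all 5371 genes tested. The differences ran from 0.17 in Stat2 to 3.09 in Zbp1, and 25 members were at least 2-fold higher. Of all genes tested, 48.2% were called higher and 8.27% were both called higher and at least 2-fold higher. The authors listed genes by this contrast, so 94.1% of the genes tested were called in 1 direction or the other, and the count of 32 describes the listed genes. Of all injury calls 51.2% were higher with TMM scaling and 70.2% with total-count scaling, and the 32 members were called higher with both. By role, the median log2 difference was 1.93 in sensors, 1.71 in effectors, 1.39 in GTPases and 0.82 in transcription factors. The largest adjusted p among the 32 was 0.000611 (edgeR quasi-likelihood test, Benjamini-Hochberg over all genes tested), for Stat2.

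**Figure D1:**
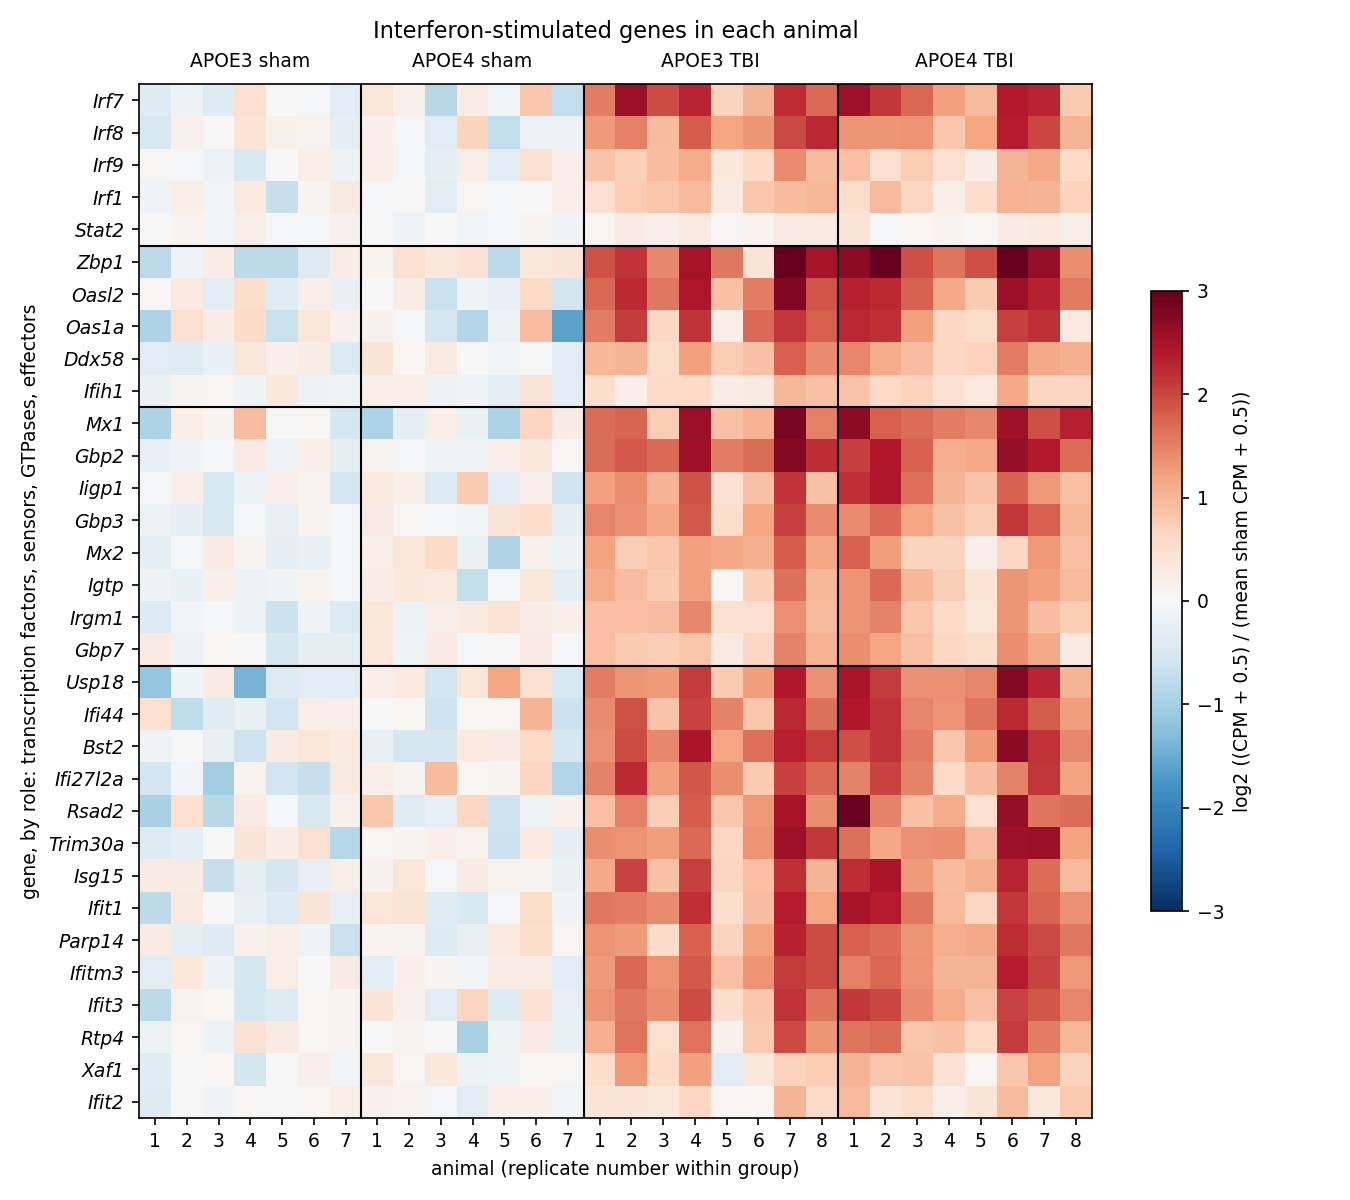
Each row is 1 of the 32 genes and each column 1 animal, with the colour showing log2 of (CPM + 0.5) over (mean sham CPM + 0.5), capped at 3 in either direction. Rows are split by role and columns by group. The 14 sham columns are pale, and the 16 TBI columns are red in most rows, least so in Stat2 and Ifit2 and in replicate 5 of APOE3 TBI.

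Transcription factors of the interferon response rose unevenly. Irf7, the factor that amplifies type I interferon production, rose most of the 5 and Stat2, the partner of IRF9, rose least. Irf7 ran from 3.35 to 6.61 CPM (median 4.02) in APOE3 sham and from 2.35 to 8.39 CPM (median 4.999) in APOE4 sham. After injury it ran from 7.56 to 29.7 CPM (median 17.6) in APOE3 and from 8.26 to 29.1 CPM (median 18.9) in APOE4. The TBI values lay mostly far above the shams, and 2 of the 16 TBI animals fell below the highest sham. The log2 difference was 1.98 ± 0.21 (SE, 30 animals, adjusted p = 2.17e-09), or 3.93-fold.

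Stat2 was among the members with the highest level per kilobase before injury and changed little. It ran from 56.4 to 68.3 CPM (median 59.6) in APOE3 sham and from 56.1 to 63.9 CPM (median 58.0) in APOE4 sham. TBI values ran from 61.7 to 72.4 CPM (median 69.2) in APOE3 and from 58.6 to 79.5 CPM (median 66.8) in APOE4. Injured and sham animals overlapped widely, and 8 of 16 TBI animals exceeded the highest sham. The rise was 0.17 ± 0.043 on the log2 scale, or 1.13-fold.

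Between these, Irf8, a factor that microglia and other myeloid cells need, had a log2 difference of 1.59 ± 0.15 (adjusted p = 3.10e-10), with every TBI animal above every sham. Irf9, the DNA-binding part of the complex with STAT2, rose by 0.82 ± 0.10. Irf1, a factor known to be induced by interferon gamma, rose by 0.76 ± 0.091, from a mean of 14.3 ± 2.37 CPM (SD, 14 sham animals) to 24.4 ± 4.39 CPM (SD, 16 TBI animals). Irf9 exceeded the highest sham in 13 TBI animals and Irf1 in 14, so both overlapped with the shams at the edge only.

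Sensors of foreign or misplaced nucleic acid held the largest change of all. Zbp1, which recognises Z-form nucleic acid and can start necroptosis, was near the limit of detection in sham tissue. It ran from 0 to 0.515 CPM (median 0.162) in APOE3 sham and from 0 to 0.714 CPM (median 0.599) in APOE4 sham, and 4 of the 14 sham libraries had no read. Injured animals ran from 0.66 to 7.80 CPM (median 3.07) in APOE3 and from 1.77 to 7.98 CPM (median 3.83) in APOE4, and 15 of 16 TBI animals exceeded every sham. The log2 difference was 3.09 ± 0.35 (adjusted p = 8.41e-09), and no sham library held more than 5 counts of the gene, so its size is less certain than its direction.

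Ifih1, the gene of MDA5 that detects long double-stranded RNA, rose least of the 5 sensors. It ran from 10.4 to 15.1 CPM (median 11.1) in APOE3 sham and from 9.57 to 15.97 CPM (median 11.1) in APOE4 sham. In TBI animals it ran from 13.5 to 24.5 CPM (median 17.9) in APOE3 and from 14.8 to 27.2 CPM (median 19.1) in APOE4. The groups overlapped, with 12 of 16 TBI animals above the highest sham, and the log2 difference was 0.63 ± 0.096 (adjusted p = 1.27e-06).

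Ddx58, the gene of RIG-I, which detects short RNA with a triphosphate end and shares its adaptor with MDA5, rose by 1.15 ± 0.12, and every TBI animal lay above every sham. The oligoadenylate synthetases, which make the activator of RNase L, rose further. Oasl2 rose by 2.01 ± 0.19 with no overlap, whereas Oas1a rose by 1.93 ± 0.30 and overlapped in 5 of 16 TBI animals. Reads of Oas1a may not be separable from its near-identical neighbours, so its value is uncertain.

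GTPases of the Mx, GBP and IRG families rose by between 0.94 and 2.78 on the log2 scale. Mx1, an antiviral GTPase whose gene is disrupted in most inbred laboratory strains, showed the largest change. It ran from 0 to 1.32 CPM (median 0.486) in APOE3 sham and from 0 to 0.998 CPM (median 0.337) in APOE4 sham, with 3 of 14 sham libraries at 0. The injured groups ran from 1.11 to 6.31 CPM (median 2.39) in APOE3 and from 2.11 to 5.66 CPM (median 2.99) in APOE4. In all, 14 of 16 TBI animals exceeded the highest sham, and the log2 difference was 2.78 ± 0.33 (adjusted p = 1.50e-08). Its neighbour on chromosome 16, Mx2, rose by 1.295 ± 0.18.

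Gbp7 rose least of the GTPases. It ran from 8.67 to 15.1 CPM (median 11.3) in APOE3 sham and from 11.6 to 16.1 CPM (median 12.9) in APOE4 sham. TBI animals ran from 15.5 to 36.4 CPM (median 22.7) in APOE3 and from 15.3 to 34.2 CPM (median 26.2) in APOE4. Only 2 of 16 TBI animals fell under the highest sham, and the log2 difference was 0.94 ± 0.11 (adjusted p = 2.29e-08).

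The guanylate-binding proteins, which attack vacuoles that hold microbes, differed in their rise, and the 3 members lie on chromosome 3 (GRCm38.p6). Gbp7 (142530336 to 142550151), Gbp3 (142560016 to 142573213) and Gbp2 (142620663 to 142638008) rose by 0.94, 1.49 and 2.08 on the log2 scale. Gbp5, another gene of the family, rose by 1.73. Gbp2 had 8.08 ± 1.11 CPM (SD, 14 sham animals) and 34.5 ± 12.2 CPM (SD, 16 TBI animals), with the smallest adjusted p of the 32 members (1.297e-12). The 95% intervals of Gbp2 (1.77 to 2.40) and Gbp7 (0.71 to 1.18) did not overlap, and a difference between genes was not itself tested. Of the immunity-related GTPases, Iigp1, which disrupts the vacuole of Toxoplasma, rose by 1.58 ± 0.18. The regulators Igtp and Irgm1, which hold the effector GTPases in check, rose by 1.08 ± 0.13 and 1.01 ± 0.11. Each of the 3 exceeded the highest sham in 15 of 16 TBI animals.

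Effectors and regulators formed the largest class, and 12 of its 14 genes rose by more than 1 on the log2 scale. Usp18, the protease that removes ISG15 from proteins and dampens signalling at IFNAR2, had the highest estimate, which did not differ beyond its SE from those of Ifi44 and Bst2. It ran from 0.441 to 2.45 CPM (median 1.46) in APOE3 sham and from 1.18 to 5.16 CPM (median 2.57) in APOE4 sham. After injury it ran from 3.78 to 12.6 CPM (median 5.85) in APOE3 and from 4.52 to 16.3 CPM (median 8.21) in APOE4. The TBI animals overlapped with the highest sham in 2 of 16 cases, and the log2 difference was 1.99 ± 0.23 (adjusted p = 6.48e-09).

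Ifit2, a member of the family that binds viral RNA and blocks its translation, rose least of the effectors. It ran from 20.6 to 30.9 CPM (median 27.1) in APOE3 sham and from 21.6 to 30.9 CPM (median 29.0) in APOE4 sham. After injury it ran from 28.1 to 55.3 CPM (median 35.98) in APOE3 and from 30.6 to 53.8 CPM (median 38.0) in APOE4. In all, 13 of 16 TBI animals exceeded the highest sham, and the log2 difference was 0.53 ± 0.089 (adjusted p = 5.46e-06). Its neighbours on chromosome 19 rose further, Ifit3 by 1.59 (95% interval 1.28 to 1.90) and Ifit1 by 1.69 (1.296 to 2.08), against an interval of 0.35 to 0.71 for Ifit2. The promoter windows of Ifit1 and Ifit3 each held 2 ISRE cores, and those of Ifit2 held none. Sequence outside the windows was not searched, and the cause of the smaller rise of Ifit2 was not tested. Over the members with a window, the median log2 difference was 1.61 in the 16 with an ISRE core and 1.20 in the 8 without one. Of those 8, the 3 with a GAS had a median of 0.76 and the 5 with neither motif 1.97. The search took exact matches to the 2 patterns only, so an element spaced otherwise was missed. A link between the motifs and the rise was not tested. Reads of Ifit3 may be shared with its near-identical copy Ifit3b.

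The other effectors differed less from one another, apart from Xaf1, whose 95% interval (0.52 to 1.03) lay wholly below those of Ifi44 (1.55 to 2.40) and Bst2 (1.60 to 2.31). Ifi44, an interferon-induced protein, rose by 1.97, Bst2 (tetherin, which holds budding virus at the cell surface) by 1.95, and Ifi27l2a, a small interferon-induced protein, by 1.86. Rsad2 (viperin, which makes a chain-ending nucleotide) rose by 1.77, Trim30a, a damper of Toll-like receptor signalling in mice, by 1.77, and Isg15, the ubiquitin-like modifier, by 1.73. Parp14, an ADP-ribosyltransferase, rose by 1.65 and Ifitm3, which blocks the fusion of virus with membranes, by 1.62. Rtp4, which limits flavivirus growth, rose by 1.3996, and Xaf1, a promoter of apoptosis, by 0.78. The SEs of these 10 genes ran from 0.13 to 0.26. Trim30a has close copies nearby, so its reads may not be separable.

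**Figure D2:**
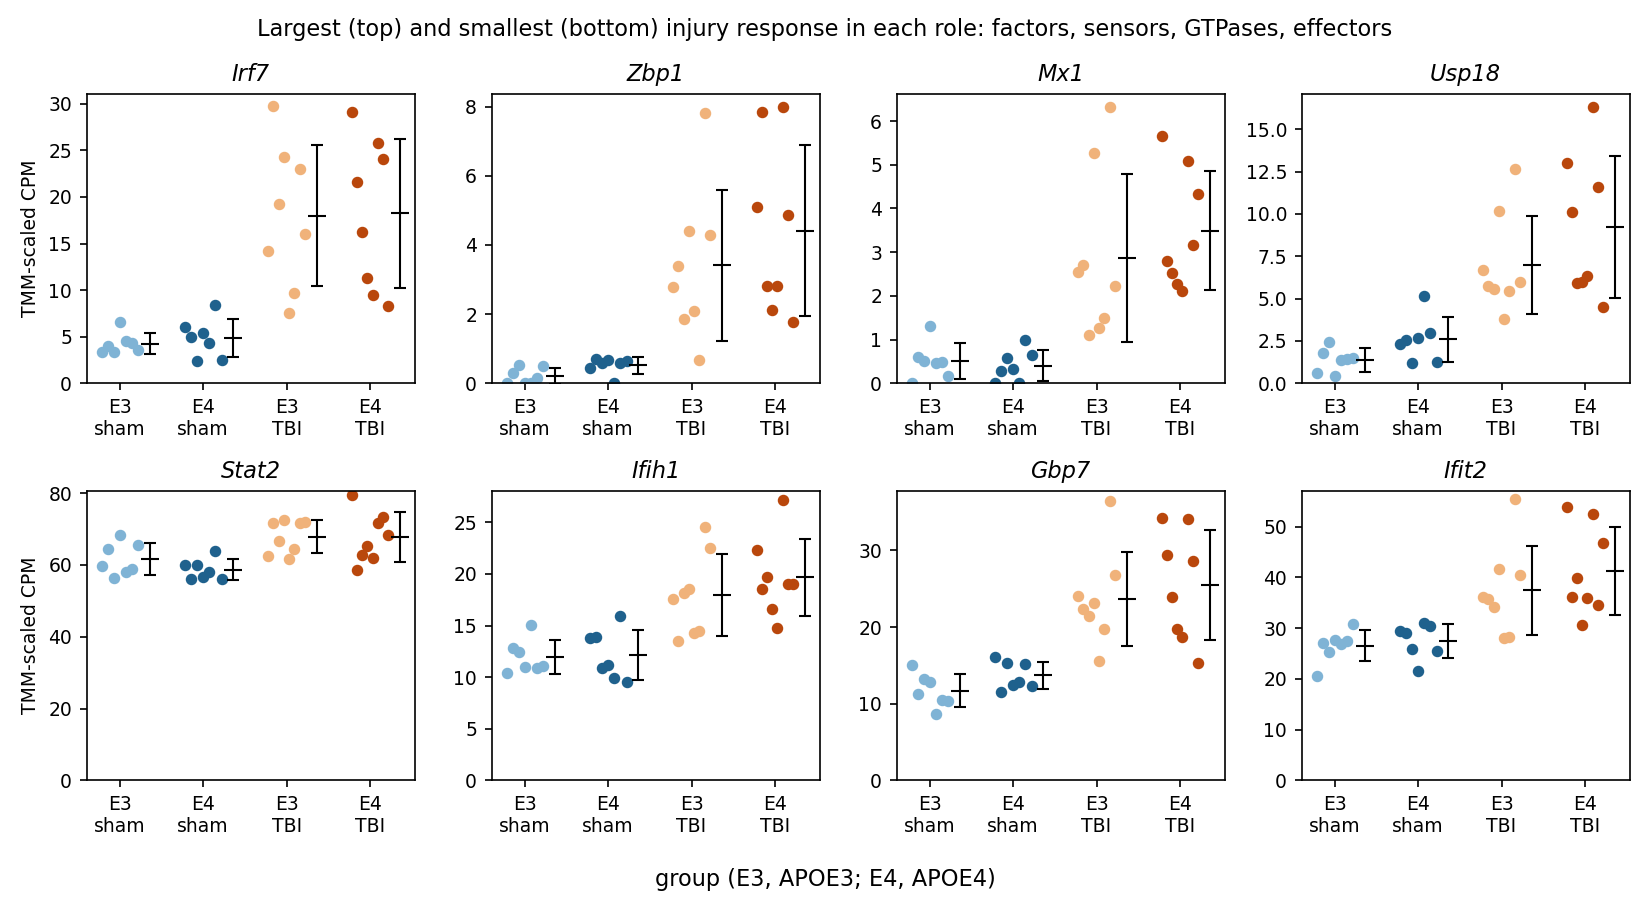
TMM-scaled CPM of the gene with the largest (top) and the smallest (bottom) injury response in each role, 1 point per animal, with the mean and SD beside each group (8 animals per TBI group and 7 per sham group). Axes start at 0 and differ between panels. Irf7, Zbp1, Mx1 and Usp18 are low in sham and spread widely after injury, and Stat2 overlaps between sham and TBI.

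Per kilobase of exon, the order of the members changed with injury. Ifitm3 was the highest in both states, at 23.3 ± 4.29 CPM per kb (SD, 14 sham animals) and 72.6 ± 22.3 CPM per kb (SD, 16 TBI animals). In sham tissue Stat2 came second (10.1 ± 0.656), followed by Ifit3 (8.10 ± 2.35), and these did not differ beyond their spread. After injury Ifit3 (25.0 ± 8.07) and Bst2 (24.5 ± 8.97) followed Ifitm3 with near-equal levels, and Stat2 was in place 7 at 11.4 ± 0.957 CPM per kb. Gbp2 moved from place 12 to place 4. The lowest levels after injury were those of Mx1 (0.840 ± 0.432), Mx2 (0.882 ± 0.306), Ifi44 (1.08 ± 0.371) and Zbp1 (1.11 ± 0.653), which did not differ beyond their spread.

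In 10 of 32 members every TBI animal lay above every sham, against 5.59% of all genes tested. These were Irf8, Ddx58, Oasl2, Gbp2, Gbp3, Isg15, Bst2, Ifitm3, Trim30a and Parp14. With these 10 included, 18 members had at least 15 of 16 TBI animals above the highest sham, and 30 had at least 12. No share over all genes was recorded for the cuts at 15 and 12, so these counts describe the members alone. The count of 10 became 1 with the 2 disputed libraries placed by their characteristics, and 9 with both placed by title. It was 15 without replicate 5 of APOE3 TBI, the animal with the weakest response. For these alternatives, too, no share over all genes was recorded.

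The size of the response differed between animals. The mean log2 level over the 32 members, relative to the sham mean, ran from -0.33 to 0.45 in the shams and from 0.77 to 2.12 in TBI animals. Replicate 5 of APOE3 TBI had 16 members above the highest sham and replicate 5 of APOE4 TBI had 23, and the rest had 25 to 32. In 6 TBI animals, 3 of each genotype, all 32 members lay above the highest sham. The same counts per animal over all genes were not recorded. Replicate 5 of APOE3 TBI was the lowest TBI animal for 14 members, and replicate 6 of APOE4 sham was the highest sham for 12. For 26 members the coefficient of variation was larger in TBI than in sham animals. The exceptions were Zbp1, Mx1, Oas1a, Usp18, Ifi27l2a and Ifi44. None of these exceeded 5.16 CPM in any sham animal. Mx2 (up to 2.06 CPM in sham) and Isg15 (up to 3.71 CPM) were also below that level, yet had the larger coefficient in TBI animals. The part of low counts in the spread was not tested. The count of 26 has no recorded share over all genes beside it.

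Markers of several cell types moved with these genes. The counts below stand beside all 5371 genes tested, of which 2589 were called higher and 2464 lower. The 12 microglia markers all rose (median log2 difference 0.92), and their summed level ran from 811 to 1119 CPM in sham and from 1387 to 2531 CPM in TBI animals. Of 10 listed monocyte and macrophage markers, 7 were tested and all 7 rose. Their summed level ran from 23.0 to 53.4 CPM in sham and from 121 to 1124 CPM in TBI animals. The 7 did not rise alike, with log2 differences from 0.79 in Cd163 to 4.33 in Lyz2 and a median of 0.91. The sum therefore does not describe each marker. Ccr2, which marks monocytes that enter from blood, had a mean of 0.604 ± 0.401 CPM (SD, 14 sham animals) and 4.02 ± 3.30 CPM (SD, 16 TBI animals). The 7 astrocyte markers rose as well (median 0.52), while 7 of 8 tested neuron markers fell and 1, Wfs1, rose. The 3 tested T and NK cell markers were called in opposite directions, with Ccl5 (3.98) and Trac (1.17) higher and Trbc2 (-1.07) lower on the log2 scale. Their summed level overlapped, from 3.65 to 10.3 CPM in sham and from 4.20 to 16.3 CPM in TBI animals, and the tested B and plasma cell markers were Igkc and Jchain alone, both higher. Of 6 listed neutrophil markers 2 were tested and both rose, S100a8 by 3.09 and Csf3r by 1.73 on the log2 scale. Their summed level ran from 7.42 to 15.96 CPM in sham and from 25.2 to 78.3 CPM in TBI animals. With 2 genes tested, this sum was not read as a measure of neutrophils. Both tested endothelial markers rose as well. All 3 tested genes of the plasmacytoid dendritic cell list (Bcl11a, Pacsin1 and Runx2) fell. Their summed level ran from 1261 to 1378 CPM in sham and from 923 to 1195 CPM in TBI animals. Given that high level in sham tissue, they were not read as a measure of plasmacytoid dendritic cells. The part of these cell types in the response of the 32 genes was not tested.

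**Figure D3:**
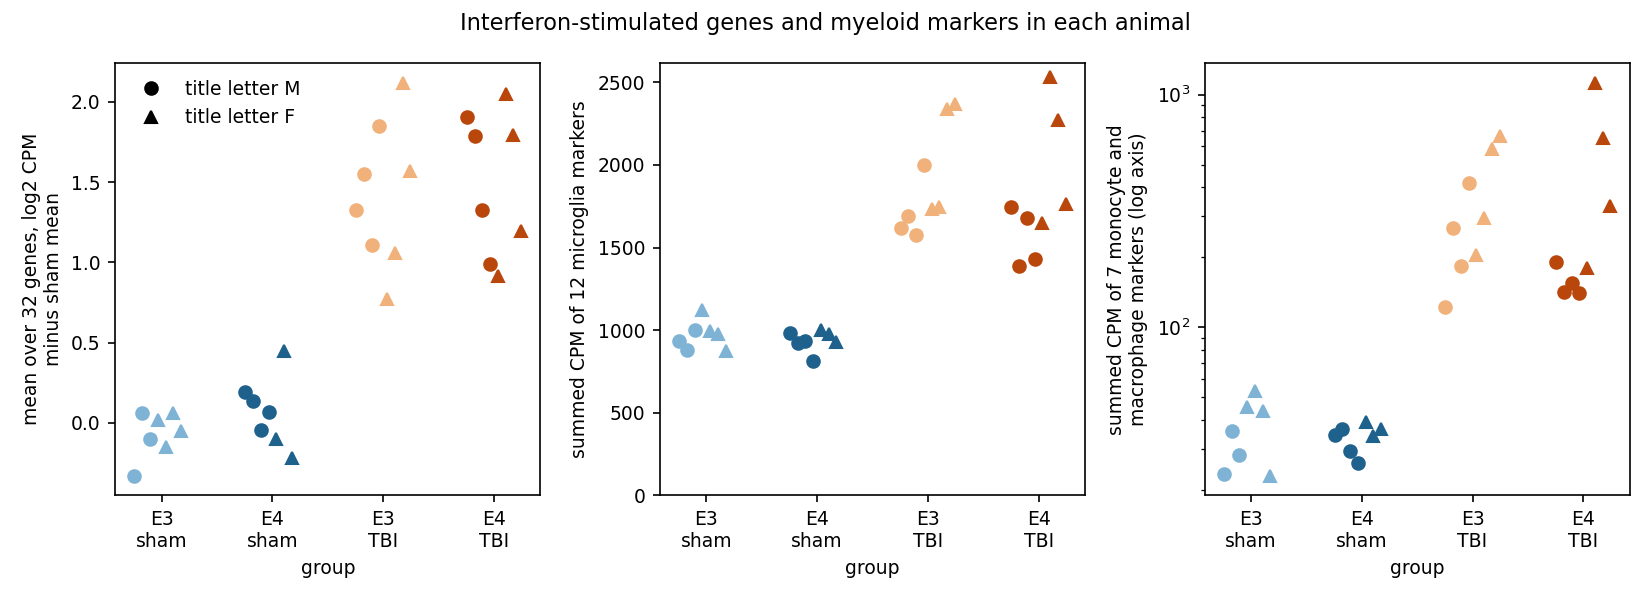
Left, the mean over the 32 genes of log2 CPM minus the sham mean in each animal. Middle and right, the summed CPM of 12 microglia markers and of 7 monocyte and macrophage markers (log axis on the right), with circles for title letter M and triangles for F. All TBI animals lie above all shams in each panel, and the monocyte and macrophage sum spreads most widely within the TBI groups.

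Other parts of the pathway moved in the same direction in most cases. The members and these lists were chosen with earlier results of these data known, so the sizes of their changes are not compared. All counts on these lists stand beside the 48.2% of genes tested that were called higher and the 94.1% called in either direction. Of 11 listed receptors, kinases and STAT proteins, 7 were tested and all 7 rose, with a median log2 difference of 0.45. The interferon gamma receptor chain Ifngr1 and the shared chain Il10rb each rose by 0.82, Stat3 by 0.45 and the type I receptor chain Ifnar2 by 0.39. The kinase gene Tyk2 rose by 0.17, and Ifnar1, the other type I receptor chain, by 0.090, from 112 ± 6.67 CPM (SD, 14 sham animals) to 119 ± 6.88 CPM (SD, 16 TBI animals). No interferon ligand was tested. Tnf was listed with counts too low to test, and the other 13 ligands and cytokines were not analysed here.

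Of 16 tested genes that lead to interferon production, 15 rose and 1 fell. Ifi204, a DNA sensor of the same family as human IFI16, rose by 3.38 ± 0.30 on the log2 scale, the endosomal receptor Tlr7 by 1.50, its chaperone Unc93b1 by 1.47 and the RNA sensor Dhx58 by 1.34. Tbk1, the kinase that activates IRF3, fell by 0.10. The differences of Ifnar1 and Tbk1 were close in size to the median shift of 0.0915 that total-count scaling gave over all genes. Of 5 tested inhibitors, 4 rose, among them the phosphatase gene Ptpn6 by 1.67 and Socs3 by 0.81, and Cish fell by 0.29. Of 50 tested further interferon-stimulated genes out of 77 listed, 48 rose and 2 fell (Znfx1 and Adar), with a median of 1.02. After Cxcl10, the largest rises among these were in the chemokine gene Cxcl9 (3.78), Phf11b (2.58) and Gbp6 (2.40).

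Within each genotype all 32 members were again higher after injury. In APOE3 animals the median log2 difference was 1.67, and 38% of all genes tested were called higher. In APOE4 animals the median was 1.55, and 33.9% of all genes tested were called higher. The smallest difference was that of Stat2 in both, 0.15 ± 0.061 in APOE3 (adjusted p = 0.0351) and 0.20 ± 0.061 in APOE4 (adjusted p = 0.00692). In APOE3 the call of Stat2 was lost with DESeq2 (adjusted p = 0.0606). The largest was that of Zbp1 in APOE3 (3.42 ± 0.55) and of Mx1 in APOE4 (2.97 ± 0.48).

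**Figure D4:**
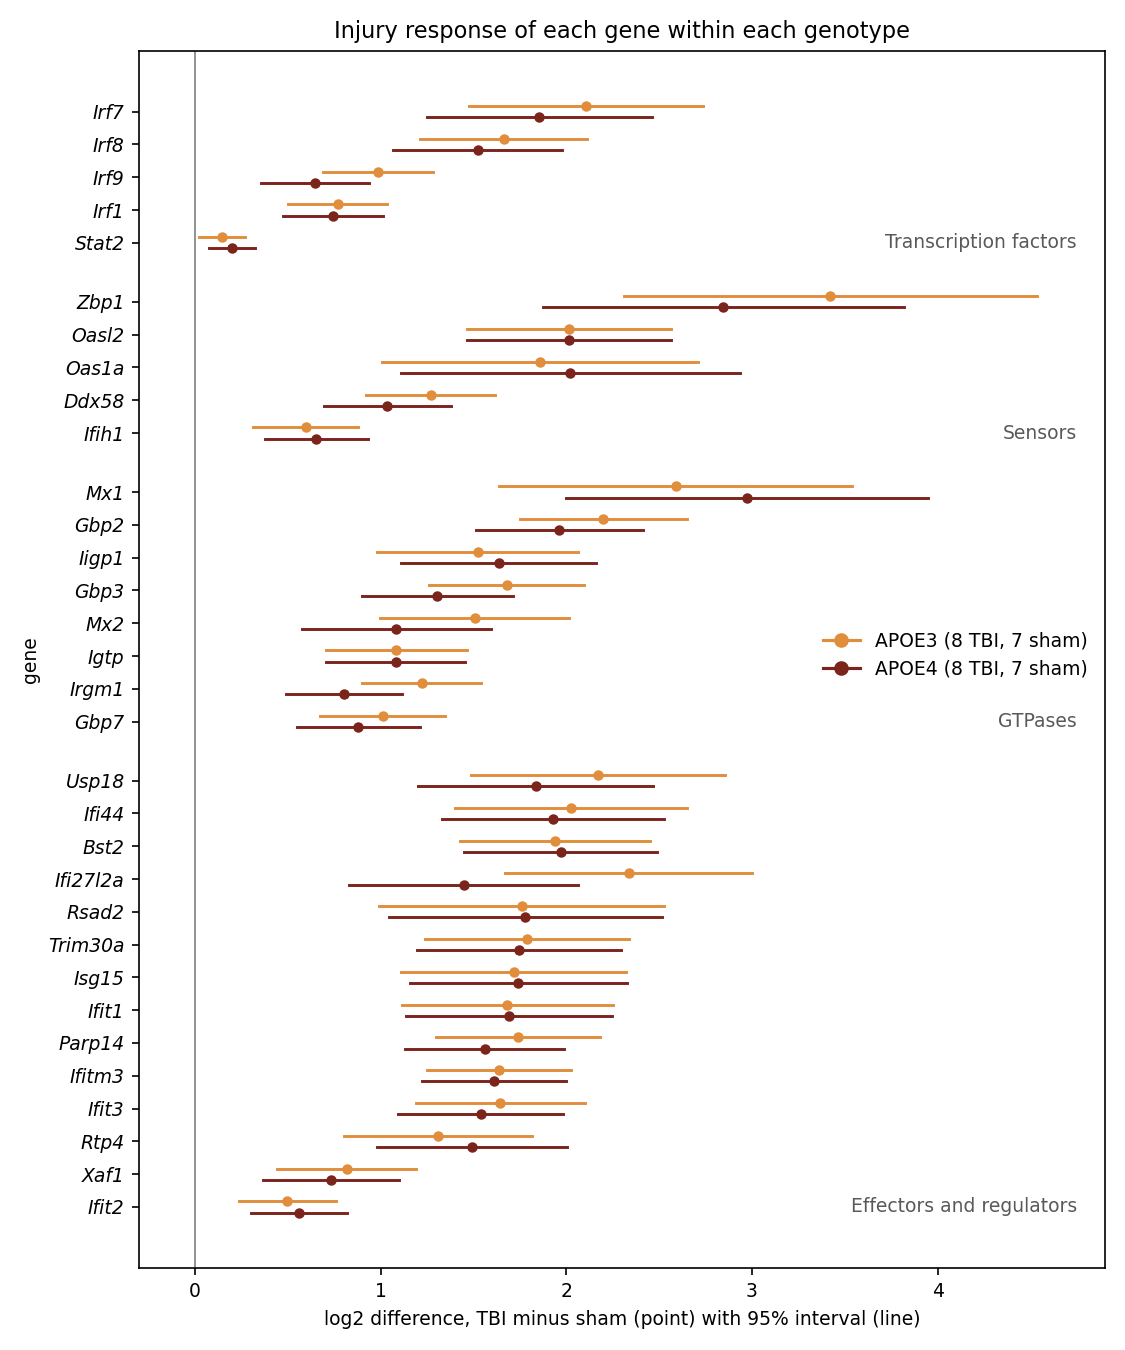
Log2 difference between TBI and sham for each of the 32 genes within APOE3 and within APOE4 animals (8 TBI and 7 sham in each), with lines for 95% intervals. Every interval lies above 0, and the pairs overlap for all 32 genes.

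The injury response did not detectably differ between the genotypes. In the edgeR test of the injury by genotype interaction, 0 of 32 members passed, 0 had an unadjusted p under 0.05, and DESeq2 and limma-voom also called 0. Among all 5371 genes the percent called was 0, and 1.84% had an unadjusted p under 0.05. The interaction terms ran from -0.89 to 0.38 on the log2 scale, with a median of -0.06, and for 24 of 32 members the 95% interval stayed within 2-fold in either direction. For the other members a difference of 2-fold was within the interval.

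The smallest interaction p belonged to Ifi27l2a, Irgm1 and Irf9. Ifi27l2a had an injury difference of 2.34 ± 0.33 in APOE3 and 1.45 ± 0.30 in APOE4, an interaction of -0.89 ± 0.46 (adjusted p = 0.999). It ran from 0.515 to 2.01 CPM (median 0.922) in APOE3 sham and from 0.638 to 3.53 CPM (median 1.72) in APOE4 sham, and from 3.13 to 9.46 CPM (median 5.88) and 2.66 to 8.77 CPM (median 5.36) after injury. Its levels overlapped between the genotypes in both states. The interaction was -0.42 ± 0.22 for Irgm1 and -0.34 ± 0.20 for Irf9, each with an adjusted p of 0.999.

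Levels did not detectably differ between APOE4 and APOE3 animals over both injury states either. In edgeR 0 of 32 members passed, against 2.01% of all genes tested, and 1 member had an unadjusted p under 0.05 (14.4% of all genes). DESeq2 and limma-voom called 0 as well. That member, Usp18, was 0.43 ± 0.21 higher in APOE4 on the log2 scale (unadjusted p = 0.0499, adjusted p = 0.348). Next by p were Irgm1 (0.19 ± 0.11) and Rsad2 (0.33 ± 0.25). For 31 of the 32 members the interval stayed within 2-fold.

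In sham animals alone, 0 of 32 members passed, against 0.168% of all genes tested, and 1 had an unadjusted p under 0.05 (5.77% of all genes). This was Irgm1, with 17.6 ± 2.72 CPM (SD, 7 APOE3 sham animals) and 24.5 ± 3.04 CPM (SD, 7 APOE4 sham animals), a log2 difference of 0.43 ± 0.17 (unadjusted p = 0.0144, adjusted p = 0.593). APOE3 sham values of Irgm1 ran from 13.2 to 20.2 CPM and APOE4 sham values from 18.7 to 28.4 CPM, so the groups overlapped. Ifi27l2a (0.73 ± 0.39) and Usp18 (0.67 ± 0.39) had the next smallest p. In TBI animals 0 of 32 members passed, against 0.447% of all genes tested, and 0 had an unadjusted p under 0.05 (11.2% of all genes). The smallest p there belonged to Usp18 (0.34 ± 0.26), Irf9 (-0.17 ± 0.13) and Iigp1 (0.25 ± 0.22). DESeq2 and limma-voom called 0 members in sham and in TBI animals.

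**Figure D5:**
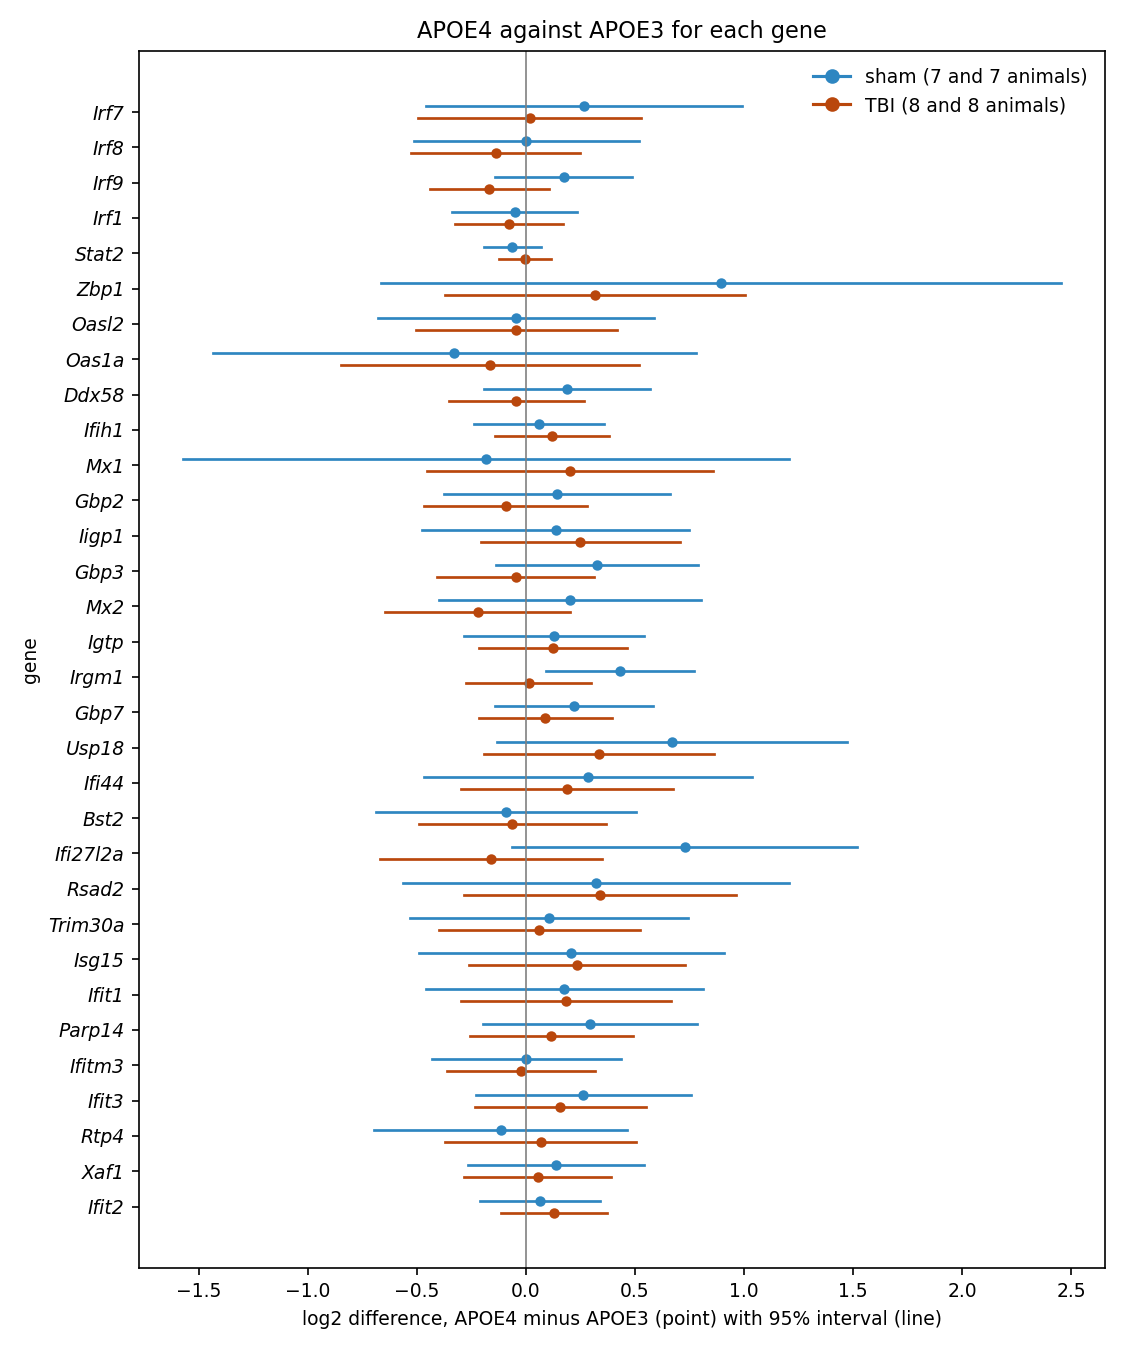
Log2 difference between APOE4 and APOE3 for each of the 32 genes in sham animals (7 and 7) and in TBI animals (8 and 8), with lines for 95% intervals. The interval leaves out 0 in 1 case, Irgm1 in sham animals, and the widest intervals are those of Zbp1, Mx1 and Oas1a in sham animals.

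The title letters F and M gave no called member, against 16.7% of all genes tested. Iigp1 had the smallest p, at -0.39 ± 0.18 for F against M (unadjusted p = 0.0355, adjusted p = 0.123 in edgeR), and was the 1 member with an unadjusted p under 0.05, against 32.6% of all genes. For all 32 members the 95% interval stayed within 2-fold. In TBI animals it averaged 15.6 ± 6.16 CPM (SD, 8 animals) with letter M and 11.3 ± 5.24 CPM (SD, 8 animals) with letter F. Trim30a (0.35 ± 0.18) and Parp14 (0.28 ± 0.14) followed in the other direction. By contrast, 6 of the 12 microglia markers and 3 of the 7 tested monocyte and macrophage markers were called higher with letter F.

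For the interaction of the letter with injury, edgeR called 0 members, with 0 at an unadjusted p under 0.05 (8.58% of all genes), and the percent called among all genes was 0. Irf8 had the smallest p (0.58 ± 0.30, adjusted p = 0.588), with 19.4 ± 4.32 CPM (SD, 8 TBI animals) for M and 26.2 ± 9.72 CPM (SD, 8 TBI animals) for F. Irf7 (-0.59 ± 0.43) and Ifi44 (-0.54 ± 0.43) came next, in the opposite direction. DESeq2 and limma-voom called 0 members for the letter and for its interaction with injury.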

How the data were processed

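RNA-seq was measured in 32 mouse brain samples. The authors deposited raw read counts per gene, whole numbers with no normalisation, beside their own log2 coefficient and p-value for TBI against sham, per the file headers. Neither of the authors' values is used as a result here. Subread 1.5.0, edgeR 3.14.0 and mm10 appear in the submitters' processing notes without a role, and annotation and strand setting are not given in the sources used here. No gene in the authors' deposited table had a p-value above 0.0503, so genes were listed for their injury contrast. Injury calls are not independent of that selection, and genes not listed were not analysed here.

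Testing used the quasi-likelihood F-test of edgeR 4.0.16 under R 4.3.3, after filterByExpr and TMM scaling. The filter dropped 211 of 5582 genes. Injury, genotype and the title letter were terms of an additive model, and comparisons within a genotype or injury state and their interaction came from 1 mean per group plus the letter. Groups were those in which title and characteristics gave the same label, and 2 libraries were left out. P-values were adjusted by Benjamini-Hochberg over all 5371 genes, with a threshold of 0.05. Levels are TMM-scaled CPM, relative to the sum of listed genes and not to the whole library, and are given as mean ± SD. Log2 differences carry an SE worked back from the F statistic of the test, and a 95% interval built from that SE. The median count per gene and library was 222, and the biological coefficient of variation was 11.5%. Column totals are sums over listed genes and not library depths. Each title carries its own identifier, so replicates were taken as separate animals.

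Levels per kilobase used the summed exon length in GENCODE vM21, and promoters and positions came from RefSeq (GRCm38.p6). Alternatives were DESeq2 1.42.0, limma-voom (limma 3.58.1), total-count scaling, no filter, a threshold of 0.01, both placements of the disputed libraries, other covariates, depth and letter classes, and leaving out each animal. The scripts were tested on simulated data. The members, their roles, the other gene lists and the rule for named genes were chosen with earlier results of these data known. Under that rule each role's largest and smallest injury response is given in every group, and in the other comparisons the 3 members with the smallest p are named where none passed. Of each other list, up to 4 genes and all tested receptors are named. The values of 1 tested gene of the receptor, kinase and STAT list are not reported here. Wfs1, Znfx1, Adar, Tbk1, Cish, Ccr2, Igkc, Jchain, Ccl5, Trac, Trbc2 and Gbp5, and members given by the size of their change, were named after their values were seen.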

Additional observations from a re-analysis of the deposited data

Results flagged for a closer look

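Across the 32 genes and 4 groups, 128 sets of 7 or 8 animals were searched for 1 animal far from the rest, and 4 were found. Chance alone flags about 1 in 20 such sets, so 4 is no more than chance gives. Irf1 was 8.67 CPM in replicate 5 of APOE3 sham, with the other 6 between 13.2 and 17.6 CPM. Zbp1 was at 0 CPM in replicate 5 of APOE4 sham, with the others between 0.44 and 0.714 CPM. Rtp4 was 1.69 CPM in replicate 4 of APOE4 sham, with the others between 3.19 and 4.59 CPM. Mx2 was 5.57 CPM in replicate 7 of APOE3 TBI, with the others between 2.37 and 3.55 CPM.

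The 2 libraries with disagreeing labels entered no comparison. The first, titled APOE4 sham and described as APOE4 TBI, had 6 members above the highest sham, 23 within the range of the shams and 3 below it. Its members averaged 0.09 above the sham mean on the log2 scale, whereas TBI animals averaged 0.77 to 2.12. The 6 were Zbp1, Igtp, Isg15, Ifitm3, Rtp4 and Xaf1. The second, titled APOE3 sham and described as APOE4 sham, had 2 members above the highest sham, Igtp and Isg15, and 30 within the range. Its members averaged 0.19.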

How the results depend on the processing

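All 32 members were called higher after injury under every alternative run for that comparison, including each of the 30 fits that left out 1 animal. Within APOE3 and within APOE4 the count ran from 29 to 32, and 22 calls of single members were lost over the alternatives, 12 of them of Stat2. Counts for genotype, the title letter and both interactions were 0 under every alternative that could be fitted, with 0 to 0 when 1 animal was left out (run for genotype and for the injury by genotype interaction). The letter could not be fitted without the letter as a covariate or in M or F alone. Members without an overlap between TBI and sham were 10, and became 1 with the disputed libraries placed by characteristics, 17 in shallow and 20 in deep libraries alone, 27 with letter M and 17 with letter F alone. The depth and letter subsets hold fewer animals. No share over all genes was recorded for any alternative, so these counts are not compared with one another. Leaving out 1 animal gave 9 (without replicate 3 of APOE3 sham) to 15 (without replicate 5 of APOE3 TBI). In deep libraries alone the APOE4 difference after injury turned to -0.022 for Iigp1 and -0.012 for Usp18, and in shallow libraries alone the letter by injury term of Ifi44 turned to 0.25. None of these 3 passed the test, and the cause was not tested. With total-count scaling the log2 differences of all genes shifted by a median of 0.0915, and 70.2% of injury calls were higher, against 51.2% with TMM. No paired analysis was possible because replicate numbers were given in accession order and pair no animals. Zbp1 and Mx1 had few counts in sham libraries, which limits the precision of their folds.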
